A study of Mus musculus with 8 samples.

Results

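The genes of DNA replication and S phase were described across 8 RNA sequencing libraries of mouse liver. They are 38 of the 47719 genes in the deposited table, taken by gene symbol, and all 38 were found. They comprise the MCM2-7 helicase, the factors that load and start it, the replicative polymerases with their clamp and clamp loader, the enzymes that supply deoxynucleotides, and genes of new chromatin. RNA came from livers of wild type C57BL/6 mice: 2 libraries labelled day 14 after hepatectomy, 4 labelled day 2 after hepatectomy, and 2 labelled control from mice aged 10 weeks. The series text calls the operation an extended hepatectomy, the removal of most of the liver, and its title concerns encapsulated human hepatocyte organoids. That text gives eLO as the treatment at day 14, eLO or EMC as the treatment at day 2, and neither for the normal controls. The labels do not say which day 2 libraries had which treatment, so time, surgery and treatment cannot be told apart, and each day 2 library is given apart. The title of day 2 replicate 1 reads day 1 where its age label reads day 2, and the title of day 2 replicate 3 carries the letters TVR, which are not explained. Whether replicates are separate animals is not stated in the labels, and a p-value here covers only the variation among these libraries, which may be technical.

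Before S phase, the origin recognition complex, CDC6 and CDT1 load the MCM2-7 helicase on origins. CDC45, GINS and MCM10 then turn it into a moving replication fork, where polymerases, the PCNA clamp and the single-strand binding protein RPA copy the DNA. Many of these genes are targets of E2F transcription factors, which the retinoblastoma family holds in check in resting cells. The hepatocytes of a normal adult liver rarely divide, and after partial removal of the liver in mice many of the remaining ones enter S phase.

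E2F binding is best known through a short promoter motif, and 3 promoters are shown as examples, those of helicase genes Mcm6 and Mcm5 with the letters and that of Mcm10 without them. The sequences are the 250 bases before the start in the RefSeq promoter table, 5′ to 3′ on the gene's strand, on build GRCm38.p6. Capitals mark the E2F spellings TTTCCCGC, TTTCGCGC, TTTGCCGC and TTTGGCGC on either strand, and neighbouring matches on opposite strands can overlap and form a single run of capitals.
Mcm6, chr1:128359706-128359955, minus strand: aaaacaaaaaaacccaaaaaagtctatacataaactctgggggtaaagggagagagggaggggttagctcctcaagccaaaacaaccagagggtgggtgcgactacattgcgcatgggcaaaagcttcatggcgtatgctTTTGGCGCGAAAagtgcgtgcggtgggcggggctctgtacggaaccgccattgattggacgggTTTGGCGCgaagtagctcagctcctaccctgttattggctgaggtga
Mcm5, chr8:75109259-75109508, plus strand: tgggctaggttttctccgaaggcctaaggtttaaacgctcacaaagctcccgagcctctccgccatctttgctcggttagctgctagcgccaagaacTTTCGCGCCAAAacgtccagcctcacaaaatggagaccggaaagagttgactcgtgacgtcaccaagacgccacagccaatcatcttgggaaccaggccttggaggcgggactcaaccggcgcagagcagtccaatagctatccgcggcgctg
Mcm10, chr2:5012792-5013041, minus strand: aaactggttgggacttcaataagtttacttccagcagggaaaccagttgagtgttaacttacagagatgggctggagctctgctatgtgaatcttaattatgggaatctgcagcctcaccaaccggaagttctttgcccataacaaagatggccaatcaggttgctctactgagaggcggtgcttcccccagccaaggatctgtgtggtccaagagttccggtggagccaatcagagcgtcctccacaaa
Mcm6 held 3 matches and Mcm5 held 2, while Mcm10 held 0 in this window. The table gave a promoter for 33 of the 38 genes. Searched on both strands from 250 bases before to 50 bases after the start, an E2F spelling was present for 13 of these 33 genes, or 39.4%, against 2.605% of the 27025 genes in the table, and 2.26% of its 32851 single promoters. The 13 were Mcm3, Mcm5, Mcm6, Mcm7, Orc1, Cdc6, Cdt1, Pola1, Pold1, Pole2, Rfc3, Lig1 and Uhrf1. The other 20 held none, among them Rrm2, Mcm2, Tyms, Fen1 and Chaf1a, which like Mcm6 were high in day 2 replicates 3 and 4. The CCAAT box, spelled CCAAT, was present for 19 of 33 genes, or 57.6%, against 41.1% of the genes in the table, and some of its matches lie in the printed windows. The cell cycle homology region, spelled TTTGAA or TTCGAA, was present for 5 of 33 genes, or 15.2%, against 21.7% of the genes in the table. A match describes letters in a window and is not a binding site.

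Across the 8 libraries the genes were high in day 2 replicates 3 and 4 and near the control level in the others. Levels are given as FPKM, fragment numbers scaled by transcript length and library size, and differences as log2(FPKM + 1), which understates the change of low genes. The median difference from the control mean over the 38 genes was 0.19 and 0.15 log2 units in day 14 replicates 1 and 2. For day 2 replicates 1 to 4 it was 0.22, -0.01, 1.90 and 2.46, and the controls were at 0.03 and -0.03. Over all 12340 genes tested the same median lay between -0.04 and 0.04 in every library. A level over 1 log2 unit above control was reached by 5 and 2 of the 38 genes at day 14, and by 4, 2, 33 and 35 in day 2 replicates 1 to 4. Of all genes tested, 13.9% and 10.0% did so at day 14, and 13.4%, 17.9%, 11.6% and 14.2% in day 2 replicates 1 to 4, so the counts of 2 to 5 were near or below the background. Day 2 replicates 3 and 4 were the 2 highest of 8 libraries for 36 genes, all but Orc1 and Mcm10, where 9.49% of the genes tested had that order. Replicate 4 exceeded replicate 3 for 35 of the 38, all but Mcm2, Rfc5 and Tk1, against 47.2% of the genes tested. Replicate 2 was the lowest of all 8 libraries for 13 of the 38, against 18.8%. Replicate 4 was the highest of all 8 for 33, against 11.1%.

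**Figure D1:**
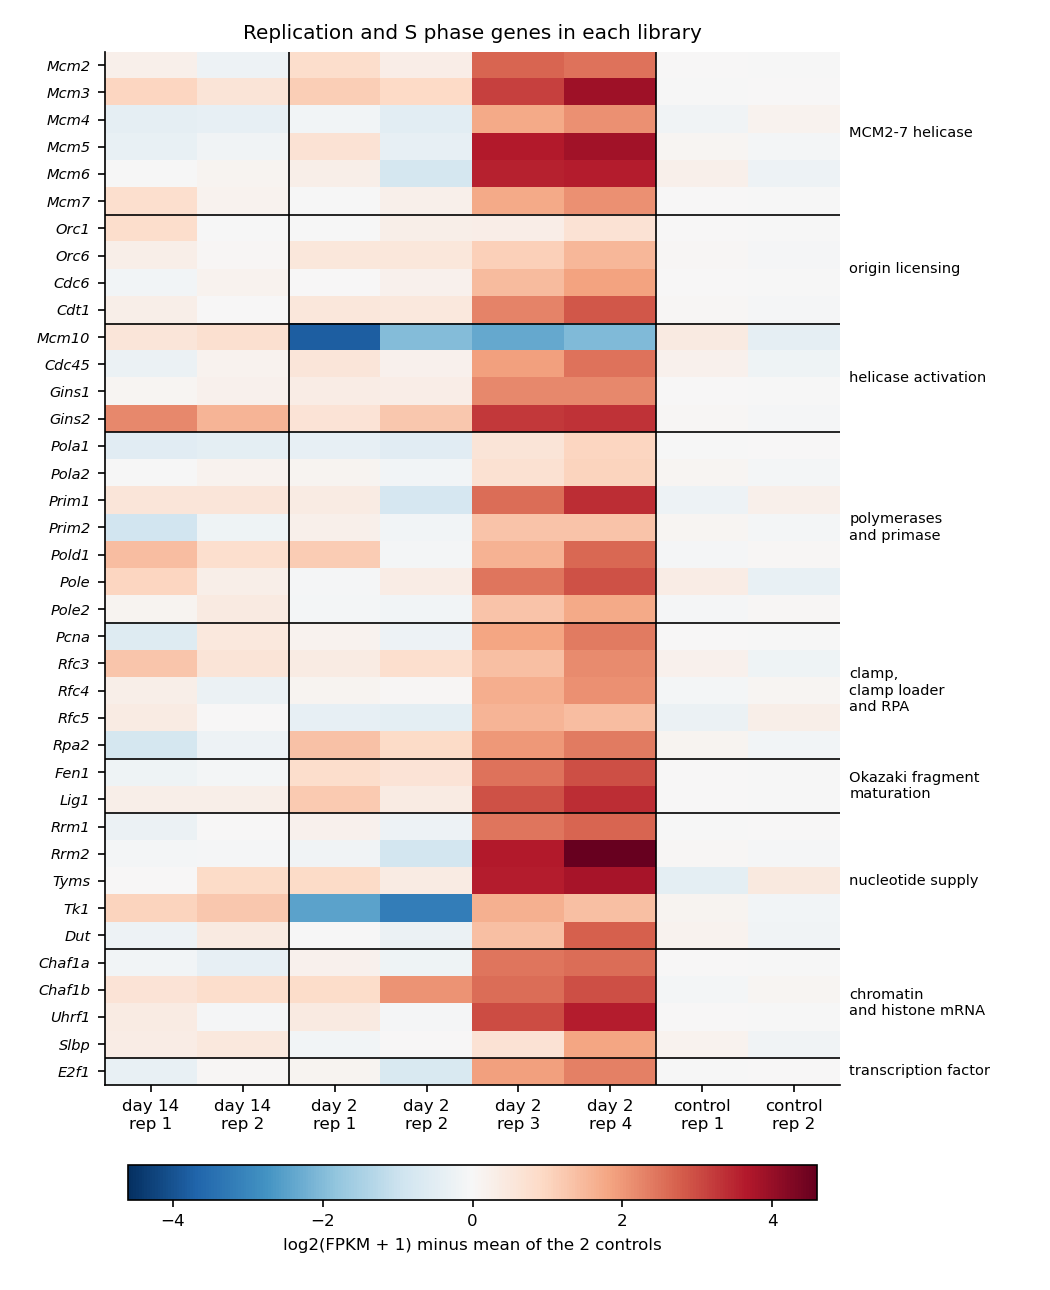
Level of each of the 38 genes in each library as log2(FPKM + 1) minus the mean of the 2 controls, on a colour scale from blue (lower) to red (higher), with genes in rows grouped by role and libraries in columns. Red fills the columns of day 2 replicates 3 and 4 in nearly every row, and Mcm10 is blue in all 4 day 2 columns.

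Tested as 1 group of 4, the day 2 libraries gave few calls, with a wide spread of levels among them. Of the 38 genes, 37 had 1 FPKM or more in 2 or more libraries and entered the limma fit, and Orc1 did not. Cdc6, Pola1, Pole2, Chaf1a and Uhrf1 passed that filter only through day 2 replicates 3 and 4, so the counts below are descriptions. At a Benjamini-Hochberg adjusted p under 0.05, 3 of the 37 were called in day 2 against control, against a background of 21.2% of all genes tested. Chaf1b and Rpa2 rose, where 9.72% of all genes were called higher, and Mcm10 fell, where 11.5% were called lower. At an unadjusted p under 0.05 in limma there were 11, again a smaller share than the 37.5% of all genes. Every day 2 library lay above both controls for 12 of the 38 genes, against 26.1% of the genes tested, and below both for Mcm10, against 25.4%, so both shares were close to or below the background. Left out in turn, the libraries gave 0 calls without either control replicate, with 3 genes at an unadjusted p under 0.05 in each of these limma fits, and 9 without day 2 replicate 2, which were Mcm2, Mcm3, Orc6, Mcm10, Pold1, Rpa2, Fen1, Lig1 and Chaf1b. Of all genes, 92 were called without control replicate 2, 96 without control replicate 1 and 2870 without day 2 replicate 2. The last is 23.6% of the genes in that fit, so the 9 calls were near the background.

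A second limma fit gave each day 2 library a mean of its own, with the spread taken from the pairs of day 14 and control libraries. It compares a library with the controls, not a condition. In replicate 4, 36 of the 37 tested genes were called, against 20.3% of all genes tested. They were 35 higher, against 10.9%, and Mcm10 lower, against 9.36%. In replicate 3, 29 were called, against 11.0%, with 28 higher, against 6.22%, and Mcm10 lower, against 4.76%. Replicate 2 had 6 calls, against 31.8%, with Mcm3, Gins2 and Chaf1b higher, against 16.0%, and Mcm10, Rrm2 and Tk1 lower, against 15.8%. Replicate 1 had 5, against 19.4%, with Mcm3, Rpa2 and Lig1 higher, against 9.69%, and Mcm10 and Tk1 lower, against 9.75%. For replicates 1 and 2 these counts are near or below the background. The calls changed with the libraries that give the spread. Leaving out a control replicate left 1 control, and most or all calls of each day 2 library were lost, as they were over all genes. Leaving out a day 14 replicate left 1 day 14 library. The calls of each day 2 library were then as many or more, and more over all genes. The cause was not tested.

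**Figure D2:**
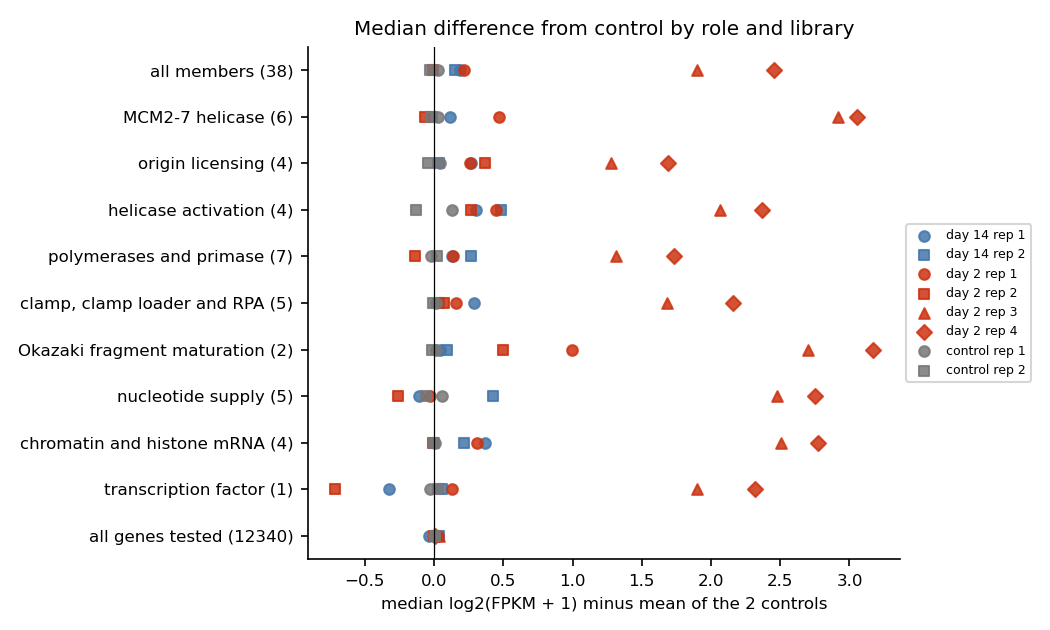
Median difference from control, in log2(FPKM + 1), for each role and library, with the number of genes in brackets and all genes tested in the bottom row. Day 2 replicates 3 and 4 (triangle and diamond) lie right of every other library in each role, and all 8 libraries lie together at 0 in the bottom row.

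The 6 subunits of the MCM2-7 helicase, which unwinds DNA ahead of the fork, had a median of 0.47, -0.07, 2.92 and 3.06 log2 units above control in day 2 replicates 1 to 4. Mcm6 (chr1:128331590-128359664 on GRCm38, the gene body beside the promoter shown above) stood at 1.73 and 1.99 FPKM at day 14, at 2.34, 0.570, 31.0 and 32.4 FPKM in day 2 replicates 1 to 4, and at 2.21 and 1.37 FPKM in control. Its 2 high day 2 libraries lay far above all others, and replicate 2 was the lowest of the 8. Compared with control by limma, Mcm6 differed by 3.54 ± 0.26 log2 units in replicate 3 (SE, adjusted p = 0.00823) and by 3.60 ± 0.26 in replicate 4 (adjusted p = 0.00539). As 1 group, day 2 differed by 1.65 ± 1.20 with an adjusted p of 0.342 in limma. Mcm7, the most abundant subunit by its mean over libraries, had 13.5 and 8.31 FPKM at day 14, 7.33, 8.82, 27.1 and 34.7 FPKM in day 2 replicates 1 to 4, and 7.55 and 7.20 FPKM in control. Its range was the narrowest of the 6, and its ends overlap the opposite-strand genes Cops6 and Ap4m1. For Mcm5, with the paired E2F letters above, the values were 0.480 and 0.699 FPKM at day 14, 1.99, 0.464, 22.6 and 26.5 FPKM in day 2 replicates 1 to 4, and 1.01 and 0.777 FPKM in control. That puts day 2 replicate 3 at 25.3 times and replicate 4 at 29.6 times the control mean. Mcm3 was the only subunit called in each of the 4 day 2 libraries on its own, at 6.82, 5.76, 30.5 and 51.8 FPKM against 2.52 and 2.56 FPKM in control. With no filter on low values its calls in replicates 1 and 2 were lost. The replicate 2 call was also lost with median-ratio scaling or with no mean-variance trend in limma. For Mcm2 and Mcm4 the folds over the control mean were 11.6 and 4.96 in replicate 3 and 10.2 and 6.58 in replicate 4.

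Among the licensing factors, CDT1 brings the helicase to origins marked by the origin recognition complex and CDC6. Cdt1 stood at 1.28 and 0.926 FPKM at day 14, at 1.70, 1.64, 8.22 and 12.9 FPKM in day 2 replicates 1 to 4, and at 0.981 and 0.824 FPKM in control. All 4 day 2 libraries lay above both controls and both day 14 libraries, and replicates 3 and 4 differed from control by 2.28 ± 0.22 and 2.87 ± 0.22 log2 units (SE, limma adjusted p = 0.0133 and 0.00563). The annotated gene lies wholly inside a longer same-strand model, Gm20388. Orc6, a subunit of the origin recognition complex and the most abundant of the 4, had 3.04 and 2.46 FPKM at day 14, 3.78, 3.81, 6.23 and 8.59 FPKM in day 2 replicates 1 to 4, and 2.52 and 2.19 FPKM in control. Its day 2 libraries also lay above the other 4. Cdc6 was below 0.3 FPKM outside day 2 replicates 3 and 4, where it reached 2.10 and 3.11 FPKM. Orc1, the largest subunit of the complex, stayed under 1 FPKM everywhere, with 0.789 and 0 FPKM at day 14, 0, 0.219, 0.254 and 0.611 FPKM in day 2 replicates 1 to 4, and 0.0392 and 0 FPKM in control. Its highest library was day 14 replicate 1, and these levels are too low to order.

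**Figure D3:**
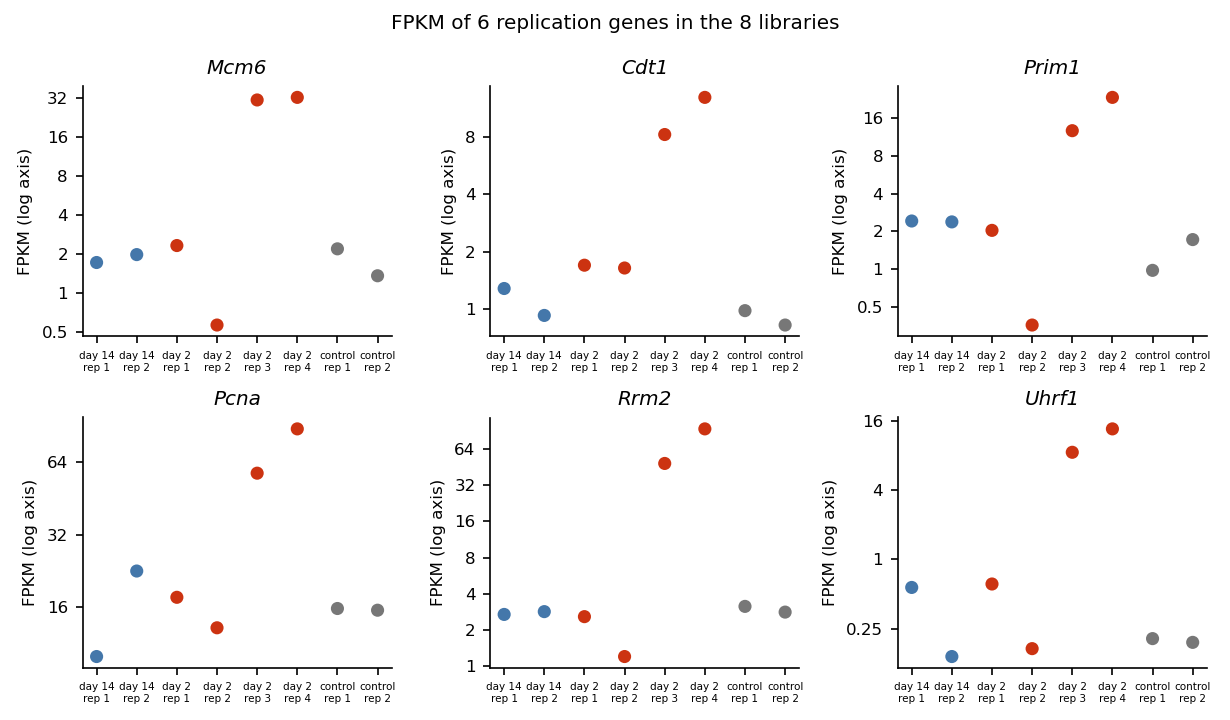
FPKM of Mcm6, Cdt1, Prim1, Pcna, Rrm2 and Uhrf1 in the 8 libraries on log axes that differ between panels, 1 point per library, with day 14 in blue, day 2 in red and control in grey. In each panel day 2 replicates 3 and 4 are the 2 highest points, from 8.22 FPKM for Cdt1 to 94.0 FPKM for Rrm2.

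Mcm10, which acts when the loaded helicase is activated, went the other way. It stood at 80.5 and 93.6 FPKM at day 14, at 3.01, 12.9, 9.90 and 12.8 FPKM in day 2 replicates 1 to 4, and at 73.2 and 41.3 FPKM in control. The 3 groups did not overlap, and the day 2 mean of 9.65 ± 4.64 FPKM (SD, n = 4) lay below the control mean of 57.3 ± 22.6 FPKM (SD, n = 2). Mcm10 fell by 2.55 ± 0.51 log2 units in day 2 against control (SE, limma adjusted p = 0.0136). It was called lower in each of the 4 day 2 libraries on its own, by 3.81, 2.01, 2.36 and 2.03 log2 units below control in replicates 1 to 4. These 4 calls were lost with no filter on low values or without either control replicate. The group call was lost without either control replicate, with changes of -2.15 without replicate 1 and -2.96 without replicate 2. In control it had the highest mean FPKM of the 38 genes, ahead of Tk1 at 16.0 and Pcna at 15.7 FPKM. The gene lies at chr2:4989714-5012791 on the minus strand of GRCm38, no annotated gene overlaps it, and Ucma, the nearest within 5000 bases, was listed at 0 in all 8 libraries. Across the 8 libraries its log2 level had a Pearson r of -0.42 with the mean of the other genes tested, the lowest of the list, as a description with no test.

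The other activators did not share that pattern. Gins1, a subunit of the GINS complex that joins CDC45 on the helicase, had 3.61 and 4.07 FPKM at day 14, 4.49, 4.47, 19.5 and 19.5 FPKM in day 2 replicates 1 to 4, and 3.49 and 3.28 FPKM in control. The libraries of day 2 lay above those of control and of day 14, by little in replicates 1 and 2. Gins2, from the same complex, was high at day 14 as well, with 9.15 and 5.46 FPKM there, 2.38, 4.13, 19.8 and 21.0 FPKM in day 2 replicates 1 to 4, and 1.25 and 1.10 FPKM in control. All 6 libraries after hepatectomy exceeded both controls, and the day 14 libraries exceeded day 2 replicates 1 and 2. Its change at day 14 against control was 1.90 ± 0.87 log2 units with an adjusted p of 0.189 in limma, and the annotated gene overlaps 2 genes on the other strand, Gm20388 and Gse1. Cdc45 had 1.39, 0.871, 5.02 and 8.18 FPKM in day 2 replicates 1 to 4, against 0.862 and 0.396 FPKM in control.

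Among the polymerases, primase starts each new strand with a short RNA, polymerase alpha extends it, and polymerases delta and epsilon copy the bulk. Prim1, the catalytic primase subunit, stood at 2.42 and 2.38 FPKM at day 14, at 2.04, 0.361, 12.6 and 23.3 FPKM in day 2 replicates 1 to 4, and at 0.981 and 1.72 FPKM in control. It had the widest range of the 7 genes, with replicate 2 lowest, and it differed from control by 2.55 ± 0.26 and 3.38 ± 0.26 log2 units in replicates 3 and 4 (SE, limma adjusted p = 0.0148 and 0.00591). Pola2, the second subunit of polymerase alpha, had the narrowest range, with 2.38 and 2.78 FPKM at day 14, 2.72, 2.08, 4.53 and 5.96 FPKM in day 2 replicates 1 to 4, and 2.61 and 2.18 FPKM in control. The catalytic subunits of polymerases delta and epsilon, Pold1 and Pole, differed in day 2 replicate 4 against control by 2.65 ± 0.33 and 2.94 ± 0.44 log2 units (SE, limma adjusted p = 0.0132 and 0.0186). Pold1 was also above both controls at day 14, at 5.75 and 3.30 FPKM against 1.39 and 1.64 FPKM. Prim2, the large primase subunit, reached 5.85 and 5.99 FPKM in day 2 replicates 3 and 4, against 1.95 and 1.63 FPKM in control. It was the only tested gene not called in replicate 4 (limma adjusted p = 0.051). Pole2, the second subunit of polymerase epsilon, was below 0.6 FPKM in the other 6 libraries and at 1.97 and 2.98 FPKM in day 2 replicates 3 and 4.

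Rpa2, a subunit of the protein that coats single-stranded DNA, was called, as Mcm10 was, both in day 2 against control and in day 14 against day 2. It had 1.40 and 2.52 FPKM at day 14, 9.65, 6.74, 15.6 and 20.8 FPKM in day 2 replicates 1 to 4, and 3.58 and 2.84 FPKM in control. The groups did not overlap, with means of 1.96 ± 0.79 FPKM at day 14 (SD, n = 2), 13.2 ± 6.27 FPKM at day 2 (SD, n = 4) and 3.21 ± 0.53 FPKM in control (SD, n = 2). Rpa2 rose by 1.65 ± 0.41 log2 units in day 2 against control (SE, limma adjusted p = 0.0266), and this call was lost without either control replicate or with no filter on low values. Pcna, the sliding clamp, was the most abundant gene of its group, at 10.0 and 22.6 FPKM at day 14, 17.6, 13.2, 57.3 and 87.3 FPKM in day 2 replicates 1 to 4, and 15.8 and 15.6 FPKM in control. Replicate 4 was called above control, by 2.40 ± 0.48 log2 units, and replicate 3 was not, at 1.80 ± 0.48 (SE, limma adjusted p = 0.0333 and 0.0779). The 2 day 14 values lay on either side of the controls. Of the clamp loader subunits that place PCNA on DNA, Rfc5 had the narrowest range, with 5.36 and 3.95 FPKM at day 14, 2.72, 2.54, 13.4 and 11.9 FPKM in day 2 replicates 1 to 4, and 2.98 and 4.89 FPKM in control. Rfc3 and Rfc4 differed from control by 2.16 ± 0.36 and 2.10 ± 0.30 log2 units in replicate 4 (SE, limma adjusted p = 0.0231 and 0.0174).

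Both genes that finish the lagging strand were above control in every day 2 library. Fen1, the nuclease that trims the RNA flap, stood at 1.66 and 1.84 FPKM at day 14, at 4.27, 3.66, 15.9 and 22.3 FPKM in day 2 replicates 1 to 4, and at 2.08 and 1.96 FPKM in control. Lig1, the ligase that seals the nick, had 1.39 and 1.39 FPKM at day 14, 3.53, 1.57, 14.0 and 19.9 FPKM in day 2 replicates 1 to 4, and 0.991 and 0.987 FPKM in control. For both, replicates 1 and 2 lay between control and replicates 3 and 4. As 1 group, day 2 differed from control by 1.72 ± 0.64 log2 units for Fen1 and 1.97 ± 0.76 for Lig1 (SE, limma adjusted p = 0.088 and 0.10). Without day 2 replicate 2 both were called, at 2.08 and 2.50 log2 units.

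The highest level of the list was that of Tyms in day 2 replicate 3 and that of Rrm2 in day 2 replicate 4, both genes of nucleotide supply. Rrm2, the regulated subunit of ribonucleotide reductase, had 2.70 and 2.85 FPKM at day 14, 2.59, 1.21, 48.5 and 94.0 FPKM in day 2 replicates 1 to 4, and 3.15 and 2.83 FPKM in control. Day 2 replicates 1 and 2 lay below both controls, and replicate 4 was 4.58 ± 0.20 log2 units above them (SE, limma adjusted p = 0.00383). Replicate 2 was called lower, by 0.85 ± 0.20 log2 units below control (SE, limma adjusted p = 0.0361). Rrm1, the large subunit of the same enzyme, stood at 1.64 and 2.15 FPKM at day 14, at 2.58, 1.66, 16.5 and 18.9 FPKM in day 2 replicates 1 to 4, and at 2.08 and 2.21 FPKM in control. Tyms, which makes thymidylate, reached 71.5 and 79.6 FPKM in day 2 replicates 3 and 4, against 3.26 and 7.10 FPKM in control. Dut, which clears dUTP, was at 17.5 FPKM in replicate 3 and 46.8 FPKM in replicate 4, against 6.94 and 5.32 FPKM in control.

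Tk1, the cytosolic thymidine kinase of the salvage route, differed most between day 2 libraries in direction. It had 33.4 and 39.5 FPKM at day 14, 2.06, 0.883, 51.4 and 43.5 FPKM in day 2 replicates 1 to 4, and 17.6 and 14.5 FPKM in control. Replicates 1 and 2 were called below control, by 2.47 ± 0.25 and 3.17 ± 0.25 log2 units, and replicates 3 and 4 above it, by 1.63 ± 0.25 and 1.39 ± 0.25 (SE, limma adjusted p = 0.0107, 0.00509, 0.0292 and 0.0262). The group change of -0.66 ± 1.33 log2 units was not called, with a limma adjusted p of 0.741, and it was 0.18 without day 2 replicate 2. Tk1 lies at chr11:117815526-117826092 on the minus strand of GRCm38, and its 5′ end overlaps Afmid, a kynurenine formamidase gene on the plus strand, by 169 bases. Afmid had 31.7 and 35.0 FPKM at day 14, 3.07, 1.17, 17.6 and 13.1 FPKM in day 2 replicates 1 to 4, and 56.4 and 65.8 FPKM in control. Like Tk1, it was lowest in day 2 replicates 1 and 2, but its highest libraries were the controls. A longer plus strand model, Gm20708, spans all of Tk1 and had 30.5 and 44.9 FPKM at day 14, at most 4.77 FPKM at day 2 and at most 0.389 FPKM in control. Whether strand was used in counting is not stated, so reads of these genes cannot be told apart, and their part in the Tk1 levels was not tested. In all, 11 of the 38 genes overlap a protein-coding gene in the annotation.

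**Figure D4:**
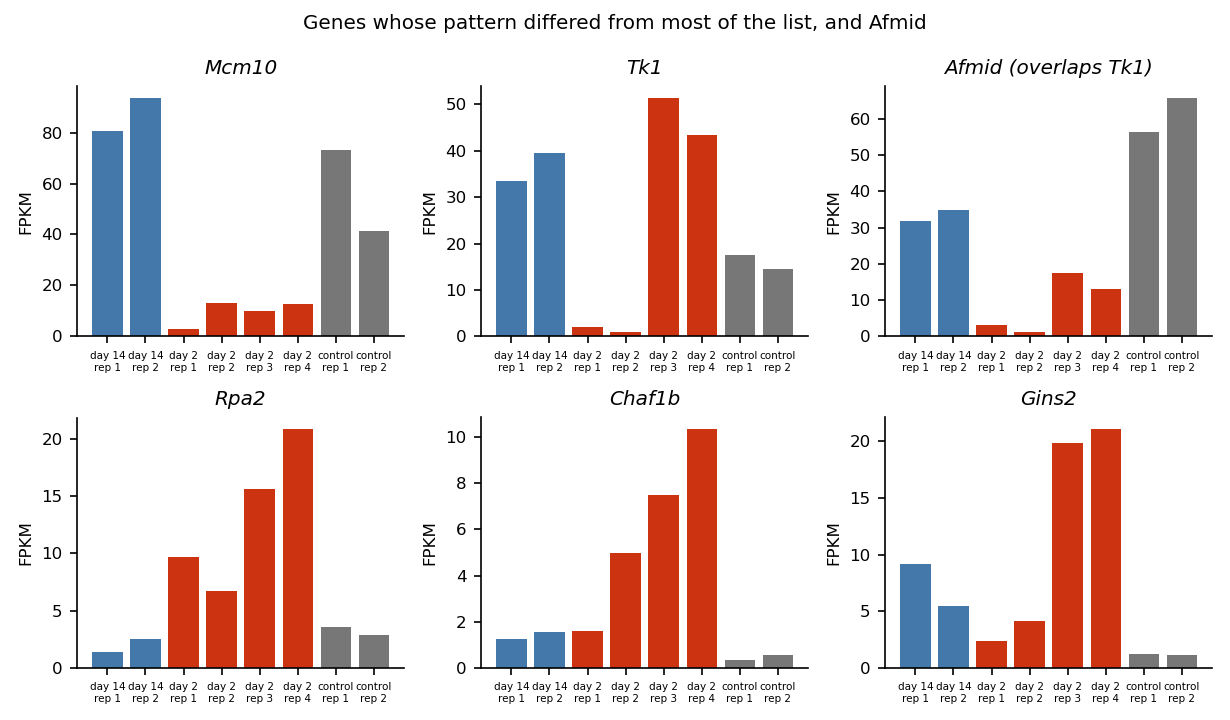
FPKM in each library, as 1 bar per library from 0, for Mcm10, Tk1, Afmid, Rpa2, Chaf1b and Gins2, with day 14 in blue, day 2 in red and control in grey. Mcm10 is at 3.01 to 12.9 FPKM in the day 2 libraries and at 41.3 or above in the rest, and Tk1 and Afmid share their lowest libraries.

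The chromatin genes act as new DNA is packed and its methylation copied. Chaf1b, a subunit of the assembly factor that places histones on new DNA, stood at 1.25 and 1.56 FPKM at day 14, at 1.61, 4.99, 7.51 and 10.3 FPKM in day 2 replicates 1 to 4, and at 0.345 and 0.552 FPKM in control. No group overlapped another, and replicate 2 lay above replicate 1. Chaf1b rose by 2.11 ± 0.51 log2 units in day 2 against control (SE, limma adjusted p = 0.0256), a call that was lost without either control replicate or with no filter. Chaf1a, its partner in the same factor, had 7.31 and 8.02 FPKM in day 2 replicates 3 and 4 and 0.172 to 0.723 FPKM in the other 6 libraries. Uhrf1, which guides maintenance methylation to new DNA, had 0.571 and 0.143 FPKM at day 14, 0.612, 0.168, 8.52 and 13.6 FPKM in day 2 replicates 1 to 4, and 0.205 and 0.190 FPKM in control. Relative to the control mean that is 43.1 times in replicate 3 and 68.8 times in replicate 4, the highest ratios of the 37 tested genes, over a control level near 0.2 FPKM. Slbp, which binds the stem-loop of histone mRNA, had the narrowest range, with 8.46 and 9.54 FPKM at day 14, 5.79, 6.54, 10.9 and 25.4 FPKM in day 2 replicates 1 to 4, and 7.41 and 5.63 FPKM in control. The transcription factor E2f1 stood at 0.685 and 1.20 FPKM at day 14, at 1.32, 0.287, 6.90 and 9.53 FPKM in day 2 replicates 1 to 4, and at 1.08 and 1.16 FPKM in control. It was 1.90 ± 0.24 and 2.32 ± 0.24 log2 units above control in replicates 3 and 4 (SE, limma adjusted p = 0.0219 and 0.00966).

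At day 14 the median level of the list was close to control. None of the 37 tested genes was called by limma, against a background of 9.79% of all genes called. None had an unadjusted p under 0.05 in limma, which 29.8% of all genes had. The spread in this limma fit also came from the day 2 libraries, which lay far apart for most of these genes. Standard errors at day 14 against control were therefore large, at 1.64 log2 units for Rrm2 and 1.38 for Mcm6. The absence of calls thus does not show a lack of change. With only the day 14 and control libraries in the fit, 29 of the genes were tested and 5 were called, namely Mcm3, Gins2, Pold1, Tk1 and Chaf1b, each with both day 14 libraries above both controls. In that fit 28.7% of all genes were called, a larger share. Both day 14 libraries lay above both controls for 13 of the 38 genes, against 35.3% of the genes tested, and below both for 7, against 35.7%. The 7 were Mcm4, Mcm5, Pola1, Prim2, Rpa2, Fen1 and Chaf1a. The largest ratio to the control mean was that of Gins2, at 7.78 and 4.64 in replicates 1 and 2, and the smallest that of Pola1, at 0.235 and 0.327.

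Against day 2, limma called 2 of the 37 genes at day 14, with a background of 16.1%. Mcm10 was higher at day 14 by 3.20 ± 0.51 log2 units and Rpa2 lower by 2.18 ± 0.41 (SE, limma adjusted p = 0.00884 and 0.014), and 7 genes had an unadjusted p under 0.05. The background was 9.09% called higher and 7.03% called lower, and 34.0% at an unadjusted p under 0.05. Without day 14 replicate 1, which leaves 1 day 14 library, both calls were lost, as were nearly all calls over all genes. The changes were then 3.31 for Mcm10 and -1.90 for Rpa2. Both day 14 libraries lay below all 4 day 2 libraries for 10 of the 38 genes, against 20.4% of the genes tested, and above them for Mcm10, against 21.2%. The comparisons share libraries, so they are not independent.

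A further 78 genes of the same processes were listed, of which 75 were tested. Gins3, Recql4, Clspn, Chtf18, Dscc1, Mcm8, Pif1, Hells, Pclaf, E2f2, Rbl1 and Ccne2 passed the filter only through day 2 replicates 3 and 4. The counts of further genes are therefore descriptions. Against control, 10 were called at day 2 by limma, 9 higher and 1 lower, again against 21.2%. Without either control replicate limma called 0 of the 75 in this comparison, with 13 at an unadjusted p under 0.05 without replicate 1 and 11 without replicate 2. By list the 10 calls with all libraries were 6 of 35 replisome and licensing genes and 2 of 9 of nucleotide supply. S phase chromatin had 0 of 11, with 2 of those 11 at an unadjusted p under 0.05 in limma. The E2F, pocket protein and cyclin genes had 2 of 20. Ccne1, the cyclin E that drives entry into S phase, had 1.62 and 1.20 FPKM at day 14, 3.26, 5.97, 8.97 and 11.7 FPKM in day 2 replicates 1 to 4, and 0.0597 and 0.301 FPKM in control. It rose by 2.74 ± 0.41 log2 units at day 2 (SE, limma adjusted p = 0.00551), and no group overlapped another. Rbl2, the pocket protein p130 of resting cells, had 5.98 and 4.75 FPKM at day 14, 2.74, 4.06, 2.80 and 2.92 FPKM in day 2 replicates 1 to 4, and 10.1 and 9.63 FPKM in control. All day 2 libraries were below all others, and it fell by 1.40 ± 0.21 log2 units against control (SE, limma adjusted p = 0.00543).

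Several of these further genes were high in all 4 day 2 libraries rather than in replicates 3 and 4 alone. Nme1, a nucleoside diphosphate kinase, had 124, 140, 130 and 122 FPKM at day 2, against 39.8 and 39.7 FPKM in control, and rose by 1.67 ± 0.29 log2 units (SE, limma adjusted p = 0.00898). Pole4, a small subunit of polymerase epsilon, was highest in replicates 1 and 2, at 51.0, 76.5, 34.2 and 36.0 FPKM at day 2 against 16.2 and 16.5 FPKM in control. Rfc2 of the clamp loader and Rnaseh2b of the enzyme that removes ribonucleotides from DNA rose by 1.56 ± 0.33 and 1.50 ± 0.32 log2 units (SE, limma adjusted p = 0.0165 and 0.0162). At day 14 against control 1 further gene was called, Rnaseh2a, the catalytic subunit of that enzyme, which rose by 2.08 ± 0.36 log2 units (SE, limma adjusted p = 0.0258). It had 67.3 and 55.3 FPKM at day 14, 27.0, 39.4, 32.3 and 48.0 FPKM at day 2, and 18.4 and 10.1 FPKM in control. At day 14 against day 2, 6 further genes were lower, with log2 changes of -2.19 for Rpa1, -1.71 for Ccne1, -1.56 for Pole4, -1.44 for Rfc2, -1.12 for Nme1 and -1.01 for Pold3 (limma adjusted p between 0.0263 and 0.0495). That is 6 of 75 against 7.03% of all genes called lower. With no filter on low values limma called 0 of the further genes, against 6.72% of all genes. With only the compared groups it called 0, against 8.31%. In these 2 limma fits, 18 and 16 of the further genes had an unadjusted p under 0.05. The 6 calls were also lost without either control replicate, which left 1 control, though other genes were still called. Without day 14 replicate 1, which left 1 day 14 library, they were lost along with nearly all calls over all genes. In day 2 replicates 1 to 4 taken apart, 6, 15, 24 and 42 of the 75 were called, against 19.4%, 31.8%, 11.0% and 20.3% of all genes, so for replicates 1 and 2 the shares were below the background. For replicates 3 and 4 the 75 include the genes that passed the filter only through these 2 libraries. Without either of them 63 were tested.

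Over the 8 libraries, 8909 other genes that passed the filter and reached 5 FPKM in a library were ranked by the Pearson correlation of their log2 level with the mean of the standardised replication genes. The 10 highest ran from r = 0.997 for Spc25, through C330027C09Rik, Fignl1, Cenpp, Iqgap3, Nrm, Cenpu, Ssna1 and Cenph, to 0.993 for Spdl1. Of these, C330027C09Rik, Fignl1, Cenpp, Iqgap3, Cenpu, Cenph and Spdl1 were under 1 FPKM outside day 2 replicates 3 and 4. They passed the filter only through the 2 libraries where most of the list was high. Spc25, a kinetochore subunit, had 2.89 and 3.27 FPKM at day 14, 4.03, 1.97, 33.7 and 56.8 FPKM in day 2 replicates 1 to 4, and 2.66 and 2.28 FPKM in control. Within the list, the correlation with the mean of the other genes was highest for Uhrf1 at 0.99 and lowest for Mcm10, followed by Tk1 at 0.51, Rpa2 at 0.79 and Chaf1b at 0.82. The points share libraries and these values are descriptions with no test.

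In whole liver, a difference in level can come from more or fewer cells that express a gene or from more or less RNA per cell, and these cannot be told apart. All 8 hepatocyte markers were detected in every library, with a summed level between 37483 and 63372 FPKM, so the tissue label held. Marker sums of other cells also varied at day 2. The 8 neutrophil markers summed to 15.8 and 68.4 FPKM at day 14, 143, 329, 88.5 and 32.2 FPKM in day 2 replicates 1 to 4, and 4.41 and 8.04 FPKM in control, so they were lowest at day 2 in the library with the highest replication genes. The 7 stellate cell or myofibroblast markers summed to 11.5 and 12.2 FPKM at day 14, 48.1, 10.2, 44.5 and 94.0 FPKM in day 2 replicates 1 to 4, and 24.9 and 24.4 FPKM in control. Acta2 supplied 21.7 FPKM of this in day 2 replicate 1, and Col3a1 supplied 45.0 FPKM in replicate 4. Lrat and Reln lay below both controls in replicate 1, at 1.17 and 5.62 FPKM. In control Lrat had 2.72 and 2.17 FPKM and Reln had 11.9 and 9.64 FPKM. For the 6 Kupffer cell markers the sums were 47.1 and 47.9 FPKM at day 14, 74.4, 112, 116 and 144 FPKM in day 2 replicates 1 to 4, and 95.7 and 78.4 FPKM in control. Marco supplied 4.36 and 6.08 FPKM of this at day 14, 35.5, 80.4, 33.4 and 51.0 FPKM in day 2 replicates 1 to 4, and 2.38 and 1.82 FPKM in control. The other 5 summed to 42.7 and 41.8 FPKM at day 14, 38.9, 31.4, 82.4 and 93.3 FPKM in day 2 replicates 1 to 4, and 93.3 and 76.6 FPKM in control. Without Marco the sum thus lay within the control range in replicates 3 and 4 and below it in replicates 1 and 2. Single markers went both ways in replicates 3 and 4. Cd5l lay above both controls there, at 32.2 and 35.1 FPKM, and Adgre1 below both, at 1.45 and 1.26 FPKM. The 7 markers of T and NK cells summed to 6.14 and 3.39 FPKM at day 14 and to 0.304 to 0.816 FPKM at day 2, with 4, 5, 4 and 4 of them at 0 in replicates 1 to 4, against 1.03 and 1.10 FPKM in control. The part of other cell types in the replication gene levels was not tested. Total FPKM ranged from 686332 to 1298005 and 10796 to 11197 genes reached 1 FPKM in each library, while absolute depth is unknown.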

How the data were processed

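RNA was sequenced from 8 mouse liver libraries. The deposited table gives gene values that its headers call FPKM. Per the submitters' processing notes, tools included Cufflinks 2.2.1, HISAT2 2.10, DESeq2 and HTSeq, and builds mm9 and GRCm38, in no order. The sources used here do not give which of them the authors used for the deposited FPKM, the scaling between libraries or the strand setting. Read counts and depth are unknown, so no counting interval was computed. Of 47719 genes, 25829 were at 0 throughout, and 27 symbols turned into dates were restored from identifiers. Libraries were grouped by label. Values were transformed to log2(FPKM + 1), the 12340 genes at 1 FPKM or more in 2 or more libraries were tested, and limma 3.58.1 in R 4.3.3 was fitted with a mean-variance trend to 3 group means (5 residual, 3.23 prior degrees of freedom), and again with a mean per day 2 library (2 residual, 2.79 prior degrees of freedom), which assumes that a lone library varies like the paired ones. P-values were two-sided and Benjamini-Hochberg adjusted over all genes tested. Both fits were checked on simulated data with known changes. The changed genes had high control levels, and each gene had the same spread in all libraries. The check does not cover the low control levels or the split between day 2 libraries seen here. Coordinates are GENCODE M21 on GRCm38 and promoters RefSeq on GRCm38.p6. Of 38 member promoters, 32 ended in letters found in a transcript as written. Full values were given for called genes and for the most abundant, widest and narrowest of each role. At most 6 called further genes per comparison were named, by size of change, and overlapping genes where a gene went against its role. Values of other genes in the list were chosen after being seen. The genes and lists were chosen with earlier results of these data known. The alternatives were a pseudocount of 0.1, other filters, median-ratio scaling, no trend, removal of the length and GC trend, only the compared groups, and leaving out each library.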

Additional observations from a re-analysis of the deposited data

How the results depend on the processing

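Of 584 alternative values for 45 results under 15 settings, 498 kept their direction and their side of the threshold, or moved little. With no filter on low values, 1 gene was called for day 2 against control, where 9.35% of all genes were called. For day 2 replicates 1, 3 and 4 the calls were 2, 12 and 22, against 8.15%, 4.48% and 8.57% of all genes. For day 14 against day 2 there were 0 further genes, against 6.72% of all genes. With only the compared groups, day 14 against control gave 5 calls and 12 further genes, against 28.7% of all genes. Day 14 against day 2 then gave 0 further genes, against 8.31% of all genes. Leaving out each library gave 0 to 9 calls for day 2 against control, 0 to 0 for day 14 against control and 0 to 6 for day 14 against day 2, and 0 to 15, 0 to 3 and 0 to 9 further genes. For day 2 replicates 1 to 4 these ranges were 0 to 9, 1 to 10, 0 to 35 and 8 to 37. The lower ends of the day 2 replicate ranges came from leaving out a control replicate, which left 1 control. Most or all calls over all genes were then lost as well. For replicate 4 the share called in the list stayed above the share of all genes. For replicates 1 to 3 the 2 shares were close. For replicates 1 to 3 the upper ends came from leaving out a day 14 replicate, which left 1 day 14 library. Calls over all genes then rose as well. In these fits the share called in the list was below the share of all genes for replicates 1 and 2. For replicate 3 it was above. For replicate 4 the upper end came without day 2 replicate 2, against 21.2% of all genes. A pseudocount of 0.1 gave medians over the 38 genes of 0.36 and 0.20 in day 14 replicates 1 and 2. Removal of the length and GC trend gave 0.27 in day 14 replicate 1, and 1.67 and 2.31 in day 2 replicates 3 and 4. The day 2 change of Tk1 ranged from -1.42 without day 2 replicate 3 to 0.18 without day 2 replicate 2, where it reversed. The cause of these shifts was not tested. Over all genes, calls for day 2 against control went to 92 and 96 without a control library and to 1705 with the trend removed, against 2620. No paired analysis was made, because no label pairs libraries of different groups, and the replicate numbers used here do not mark pairs. The titles of day 14 replicate 1 and day 2 replicate 1 begin with the same number, which is not explained. Depth is unknown, which limits what can be said of genes under 1 FPKM.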
